A study of Bos taurus with 14 samples.

Results

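The extracellular matrix transcripts and the transcripts of the enzymes that cleave or cross-link matrix were followed in liver and blood neutrophils of Holstein cattle (Bos taurus). They comprised 58 probes of the 15011 distinct probes on a custom bovine array, for 53 genes. A probe was counted when its gene name, or the gene symbol in brackets in its description, was that of a collagen or laminin chain, a matrix metalloproteinase (MMP), an ADAMTS protease, a tissue inhibitor of metalloproteinases (TIMP), a fibulin, a fibrillin, a thrombospondin or a lysyl oxidase, or was FN1, SPARC, DCN, LUM, BGN, FMOD, POSTN, ELN, SPP1 or SDC2. The rule used names alone and no measured value, but it was chosen with earlier results of these data known. For 5 genes (MMP2, MMP3, MMP9, MMP14 and TIMP1) the array held a second probe designed on the human sequence, named here as the human-sequence probe. COL4A3BP, which matches only by its spelling, encodes a ceramide transfer protein and not a matrix component, and it is given apart.

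All animals, heifers or steers, were given the carotenoid β-cryptoxanthin by mouth on day 0 at 0.2 mg per kg body weight. Liver of 3 cattle (animals 58, 61 and 66) and peripheral neutrophils of 4 other cattle (animals 25, 26, 32 and 34) were each measured on day 0 and on day 7, which gave 14 single-colour arrays. The groups were liver on day 0, liver on day 7, neutrophils on day 0 and neutrophils on day 7. No untreated animals were analysed here, so β-cryptoxanthin and anything else that changed over the 7 days cannot be told apart. The 6 liver arrays lay on 1 slide and the 8 neutrophil arrays on another, with day 0 and day 7 in different array positions, so tissue and slide, and day and array position, cannot be told apart either. The labels do not say how liver was sampled or neutrophils were purified.

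The extracellular matrix is the protein and polysaccharide scaffold around cells. Fibrillar collagens give it tensile strength, basement membrane collagens and laminins underlie epithelia and vessels, and small leucine-rich proteoglycans such as decorin and biglycan bind collagen fibrils and growth factors. MMPs and ADAMTS proteases cut matrix proteins, TIMPs inhibit them, and lysyl oxidases cross-link collagen and elastin. In liver most matrix is made by stellate cells and portal fibroblasts, with fibronectin also secreted by hepatocytes, whereas neutrophils carry proteases in their granules, among them the gelatinase MMP9.

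Between 57.1% and 76.7% of the spots on an array were well above background, with the lowest share on the day 7 neutrophil array of animal 34. The hepatocyte markers were well above background on every liver array (10 of 10), and the neutrophil markers S100A8, S100A12, LTF, CAMP and MPO on every neutrophil array. S100A8, S100A12 and LTF were also well above background on every liver array, and the hepatocyte marker APOA1 on every neutrophil array. On day 0, S100A8, S100A12, CAMP and MPO read lower in liver than in neutrophils. LTF read higher in liver, at 1.0 to 3.01 against -0.46 to -0.22. The neutrophil samples also carried markers of other blood cells: 5 or 6 of 6 T cell markers were well above background on each array, and both B cell markers, the eosinophil marker CCR3, and CD68 and CD14 on all of them. Of 8 skeletal muscle markers, 1 to 3 were well above background in liver on day 0 and all 8 on day 7. All values are log2 signals relative to the array's 75th percentile, given in the order of animals 58, 61 and 66 for liver and of animals 25, 26, 32 and 34 for neutrophils. Differences carry the standard error of a limma fit, and a probe counted as higher or lower when its Benjamini-Hochberg adjusted p over all probes tested was under 0.05. In bulk RNA, fewer cells of a type and less RNA per cell cannot be told apart.

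In liver, 33 of the 58 matrix and protease probes were well above background on all 6 arrays (56.9%, against 61.8% of all probes), 17 on some and 8 on none. In neutrophils, 15 were well above background on all 8 arrays (25.9%, against 53.7% of all probes), 21 on some and 22 on none. The probes for COL8A1, COL9A1, MMP16, MMP20 and MMP3, and the human-sequence probe for MMP3, were not well above background on any of the 14 arrays. MMP13 (a collagenase) and COL11A2 were not well above background on any liver array. The number of these probes above background was lower on day 7 than on day 0 in every animal. It went from 46, 50 and 45 to 33, 45 and 42 in liver, and from 31, 34, 26 and 24 to 30, 29, 24 and 20 in neutrophils. The share of all spots well above background was lower on day 7 in every animal too. It went from 76.2%, 76.7% and 74.7% to 62.7%, 75.1% and 72.9% in liver, and from 71.6%, 70.9%, 68.9% and 63.5% to 69.0%, 67.4%, 64.2% and 57.1% in neutrophils.

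**Figure D1:**
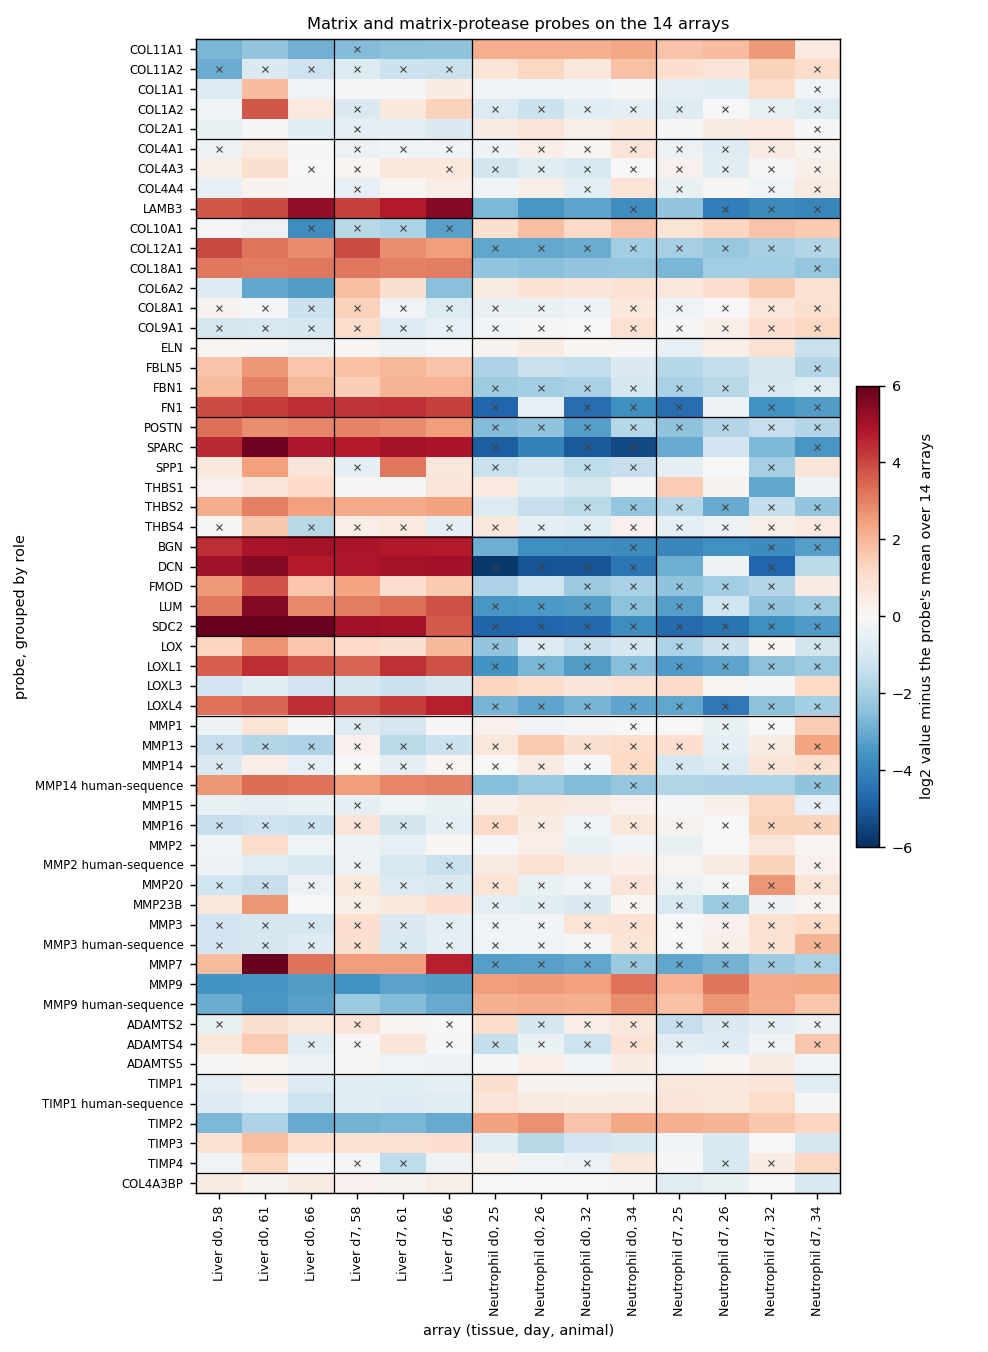
Log2 value of each of the 58 probes on the 14 arrays, as the difference from the probe's own mean over the arrays (colour), with a cross where the probe was not well above background; columns are arrays by tissue, day and animal, and rows are grouped by role. Proteoglycan, SPARC and FN1 probes are high on all 6 liver arrays, MMP9, TIMP2 and COL11A1 on the neutrophil arrays, and MMP7, COL1A2 and LUM stand out on the day 0 liver array of animal 61.

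Before the dose, most of the matrix and protease probes tested differed between liver and neutrophils, as did most probes of the array. Liver had the higher levels of the small proteoglycans, of SPARC, fibronectin and periostin and of 3 lysyl oxidases, and neutrophils had the higher levels of MMP9, TIMP2 and the collagen chains COL11A1 and COL6A2. Of the 45 probes that could be tested on day 0, 36 were called (83.2% of all probes tested): 24 were higher in liver, against 39.7% of all probes, and 12 were higher in neutrophils, against 43.4% of all probes. These counts depend on how a probe entered the test. Of the 45, 23 entered through liver alone, being above background on each of its day 0 arrays, and 2 through neutrophils alone, so most such probes had to differ. The proteoglycans, SPARC, FN1, periostin and the lysyl oxidases that were higher in liver all entered through liver alone. So did LAMB3, COL12A1, COL1A2, MMP7, MMP23B and the human-sequence probe for MMP14, whereas COL11A2 and COL10A1 entered through neutrophils alone. Over all probes, 82.5% of those that entered through liver alone were higher in liver, and 97.7% of those through neutrophils alone were higher in neutrophils. Among the 20 that were well above background on every day 0 array of both tissues, 4 were higher in liver (32.1% of all such probes) and 10 in neutrophils (49.4% of all such probes).

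Fibrillar collagens form the striated fibres of connective tissue. COL11A1, a chain of the minor fibrillar collagen XI, had values of -5.45, -5.08 and -5.57 in liver and -0.55, -0.52, -0.59 and -0.40 in neutrophils on day 0. The groups did not overlap, and the level was 28.8-fold higher in neutrophils (liver minus neutrophils -4.85 ± 0.17, adjusted p = 5.64e-08). COL2A1, the chain of cartilage collagen, was lower in liver by less (-0.97 ± 0.19, adjusted p = 0.00156). COL11A2 was well above background on all 4 neutrophil arrays and on no liver array, and was at least 3.24-fold higher in neutrophils. Here and below, "at least" sets the brighter tissue's mean against a dim-tissue mean in which each array enters with the higher of the probe's own signal and the lowest signal of any probe well above background. For the collagen I chains, which form the main fibrillar collagen of most tissues, the liver animals differed widely. COL1A2 read -6.14, -2.29 and -5.39 in liver and was well above background on no neutrophil array. It was at least 1.83-fold higher in liver, but no such bound was left without liver animal 61, and the call was lost without neutrophil animal 25, 26 or 32 (adjusted p = 0.0535 to 0.0738) and with normexp and quantile normalization (adjusted p = 0.0595). COL1A1 read -5.19, -2.49 and -4.59 in liver against -4.52, -4.63, -4.52 and -4.50 in neutrophils, which overlapped and did not pass the test (0.45 ± 0.56, adjusted p = 0.468).

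Collagen chains fold into a triple helix that needs glycine at every 3 residues. Of the 14 collagen chain probes, 4 were 60-base probes made entirely of this repeat, with a glycine codon at every 3 codons. They are shown because 3 of these 4, all that were tested, were higher in neutrophils (43.4% of all probes tested). The 3 were well above background on every day 0 array of both tissues, where 49.4% of all such probes were higher in neutrophils. Of the other 10, 2 were higher in neutrophils, COL10A1 and COL11A2, which entered through neutrophils alone (97.7% of all such probes). A further 3 of the 10 were higher in liver, and COL4A3, COL8A1 and COL9A1 were not tested. The sequences are those printed on the array, 5′ to 3′, with the glycine codons in capitals.
COL11A1: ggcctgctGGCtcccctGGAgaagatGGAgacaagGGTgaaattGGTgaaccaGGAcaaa
COL2A1: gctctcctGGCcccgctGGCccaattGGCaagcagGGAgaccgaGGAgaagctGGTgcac
COL6A2: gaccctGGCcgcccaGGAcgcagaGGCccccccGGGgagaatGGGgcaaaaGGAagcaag
COL4A1: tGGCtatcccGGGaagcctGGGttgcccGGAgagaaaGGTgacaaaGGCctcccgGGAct
The fourth probe, for a chain of basement membrane collagen IV, was well above background on 2 of 3 liver arrays and no neutrophil array on day 0 and was not tested. The comparison between these probes was made after their values were seen and has no test.

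COL6A2, a chain of the beaded filaments of collagen VI, read -3.85, -6.15 and -6.39 in liver and -2.51, -2.14, -2.32 and -2.17 in neutrophils on day 0. It was 9.04-fold higher in neutrophils (liver minus neutrophils -3.18 ± 0.56, adjusted p = 0.000751), and the groups did not overlap. On the day 7 arrays the same comparison gave -0.93 ± 0.90 (adjusted p = 0.378), since the liver values were higher there, as described below. COL10A1, the chain of hypertrophic cartilage collagen, was also higher in neutrophils (-2.81 ± 0.81, adjusted p = 0.0113), with liver values from -8.95 to -5.30, of which 2 of 3 were well above background. This probe entered the test through neutrophils alone, so the direction was largely set by how it entered.

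The remaining collagens and laminins were higher in liver or not called. COL18A1, whose C-terminal fragment is endostatin, read 0.77, 0.70 and 0.78 in liver and -4.76, -4.90, -4.76 and -4.71 in neutrophils. Both groups were tight, and the difference was 46.3-fold (5.53 ± 0.14, adjusted p = 1.43e-08). LAMB3, the β3 chain of an epithelial laminin, read 2.03, 2.29 and 3.60 in liver and -4.35, -5.15, -4.83 and -5.41 in neutrophils, where 3 of 4 arrays were well above background (7.58 ± 0.41, adjusted p = 5.44e-07). It entered the test through liver alone, so the direction was largely set by how it entered. COL12A1, which associates with fibril surfaces, was at least 14.5-fold higher in liver. COL4A4 did not pass the test (-0.17 ± 0.35, adjusted p = 0.665).

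All 5 probes of the small leucine-rich proteoglycans and syndecan-2 were higher in liver. Each was well above background on every day 0 liver array and on at most 3 neutrophil arrays, so the direction follows from how they entered the test. DCN (decorin) read 3.36, 3.73 and 3.04 in liver and was well above background on none of the day 0 neutrophil arrays, a difference of at least 463-fold. SDC2 (syndecan-2, a membrane heparan sulphate proteoglycan) read 4.11, 3.74 and 2.67 in liver and was at least 507-fold higher there. BGN (biglycan) read 3.13, 3.61 and 3.72 in liver and -4.24, -4.97, -5.03 and -5.11 in neutrophils, where 3 of 4 arrays were well above background, a 321-fold difference (8.32 ± 0.26, adjusted p = 3.38e-08). LUM (lumican) was at least 26.8-fold higher in liver, or 15.2-fold without animal 61. FMOD (fibromodulin), well above background on 2 of 4 neutrophil arrays, differed by 4.45 ± 0.47 (adjusted p = 3.43e-05).

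The probes of SDC2, DCN and SPARC return in the comparisons of the days below, and the first 30 bases of each are given as printed on the array, in lower case throughout.
SDC2: actgcttggaatattcatgccaggaaaagg
DCN: agaaaaccctcatttttataacctggcaaa
SPARC: tcgttcacctccaagcatttcatgaaaaag

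Of the adhesive, elastic fibre and matricellular probes, FBLN5, ELN and THBS1 were well above background on every day 0 array of both tissues, and the others tested entered through liver alone. Where a neutrophil value was not well above background, the size of the difference is set in part by the background. SPARC (osteonectin), a collagen-binding protein, read 3.35, 4.71 and 3.70 in liver and -6.08, -5.21, -6.21 and -6.56 in neutrophils, where only animal 26 was well above background (9.93 ± 0.40, adjusted p = 1.17e-07). FN1 (fibronectin) read 0.58, 0.87 and 1.10 in liver. In neutrophils only animal 26 was well above background, at -3.83, against -8.10, -7.93 and -7.03 in the others, and the difference was 7.57 ± 0.94 (adjusted p = 9.13e-05). POSTN (periostin) was at least 14.6-fold higher in liver and FBN1 (fibrillin-1, the core of microfibrils) at least 3.52-fold. FBLN5 (fibulin-5) was higher in liver by 3.39 ± 0.31 (adjusted p = 1.25e-05). THBS2 (thrombospondin-2) and SPP1 (osteopontin), well above background on 2 and 1 of the 4 neutrophil arrays, were higher in liver by 4.10 ± 0.36 and 2.60 ± 0.42 (adjusted p = 9.38e-06 and 0.00043). ELN (elastin) and THBS1 (thrombospondin-1) were not called. ELN differed by -0.25 ± 0.18 (adjusted p = 0.229) and THBS1 by 0.99 ± 0.41 (adjusted p = 0.0523).

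Among the cross-linking enzymes, LOXL4, LOXL1 and LOX were well above background on all day 0 liver arrays and no neutrophil array, and were at least 56.8-fold, 30.1-fold and 3.41-fold higher in liver. LOXL3 went the other way. It read -3.19, -2.72 and -3.20 in liver and -0.74, -0.96, -1.32 and -1.19 in neutrophils (-1.99 ± 0.21, adjusted p = 2.94e-05).

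MMP9 (gelatinase B), stored in neutrophil granules, was the protease with the largest difference towards neutrophils. Its bovine probe read -3.41, -3.38 and -3.16 in liver and 2.71, 2.73, 2.65 and 3.42 in neutrophils, 73.3-fold higher in neutrophils (-6.20 ± 0.22, adjusted p = 6.45e-08). The human-sequence probe gave 47.6-fold (-5.57 ± 0.22, adjusted p = 1.11e-07). The 2 probes align over their whole length and are identical at 50 of 60 bases. Their first 30 bases, identical at 28, are shown with the differing bases in capitals.
MMP9: GggaggtgggctgggccctctcttcCcacc
MMP9 human-sequence: TggaggtgggctgggccctctcttcTcacc

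For the other genes with 2 probes, the pairs shared runs of at most 10 bases, and they did not all give the same result. The human-sequence probe for MMP14, a membrane-anchored activator of MMP2, read -0.05, 0.66 and 0.56 in liver and -5.23, -4.89, -5.28 and -5.02 in neutrophils, where 3 of 4 arrays were well above background (5.49 ± 0.21, adjusted p = 9.72e-08). That probe entered the test through liver alone, so the direction was largely set by how it entered. The bovine MMP14 probe was well above background on 1 of the 14 arrays, the day 0 liver array of animal 61. For MMP2 (gelatinase A) the bovine probe did not pass the test (0.26 ± 0.37, adjusted p = 0.528), and the human-sequence probe was higher in neutrophils (-1.21 ± 0.20, adjusted p = 0.000593). For the TIMP1 pair the same direction was seen, past the threshold with the human-sequence probe (-1.39 ± 0.21, adjusted p = 0.000286) and not with the bovine probe (-0.74 ± 0.31, adjusted p = 0.0533).

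MMP7 (matrilysin), an epithelial protease, read -2.91, 2.38 and -1.54 in liver and was well above background on no neutrophil array, at least 27.6-fold higher in liver, or 9.53-fold without animal 61. MMP23B was at least 2.37-fold higher in liver, or 1.39-fold without animal 61. Its groups overlapped, and the call was lost without liver animal 61 (adjusted p = 0.0619) or without neutrophil animal 25, 26 or 32 (adjusted p = 0.0639 to 0.0797). MMP15 was higher in neutrophils by less (-0.90 ± 0.16, adjusted p = 0.000881). MMP1 and the aggrecan-cleaving ADAMTS5 were not called (0.19 ± 0.27 and -0.24 ± 0.21, adjusted p = 0.522 and 0.302).

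The TIMPs differed among themselves. TIMP2, which inhibits MMPs and also takes part in the activation of MMP2, read 0.43, 1.28 and 0.13 in liver and 5.54, 5.90, 4.85 and 5.44 in neutrophils, 28.2-fold higher in neutrophils (-4.82 ± 0.33, adjusted p = 2.39e-06). TIMP3, which binds to the matrix, read -2.32, -1.38 and -2.09 in liver and -3.78, -4.84, -4.32 and -4.10 in neutrophils (2.33 ± 0.31, adjusted p = 0.000137). TIMP4 differed by 0.24 ± 0.42 (adjusted p = 0.604). The ceramide transfer protein probe COL4A3BP was 1.34-fold higher in liver (0.43 ± 0.15, adjusted p = 0.0266). That call was lost after removal of the row trend and without liver animal 58 or 66 or neutrophil animal 25 or 34 (adjusted p = 0.0554 to 0.0878).

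**Figure D2:**
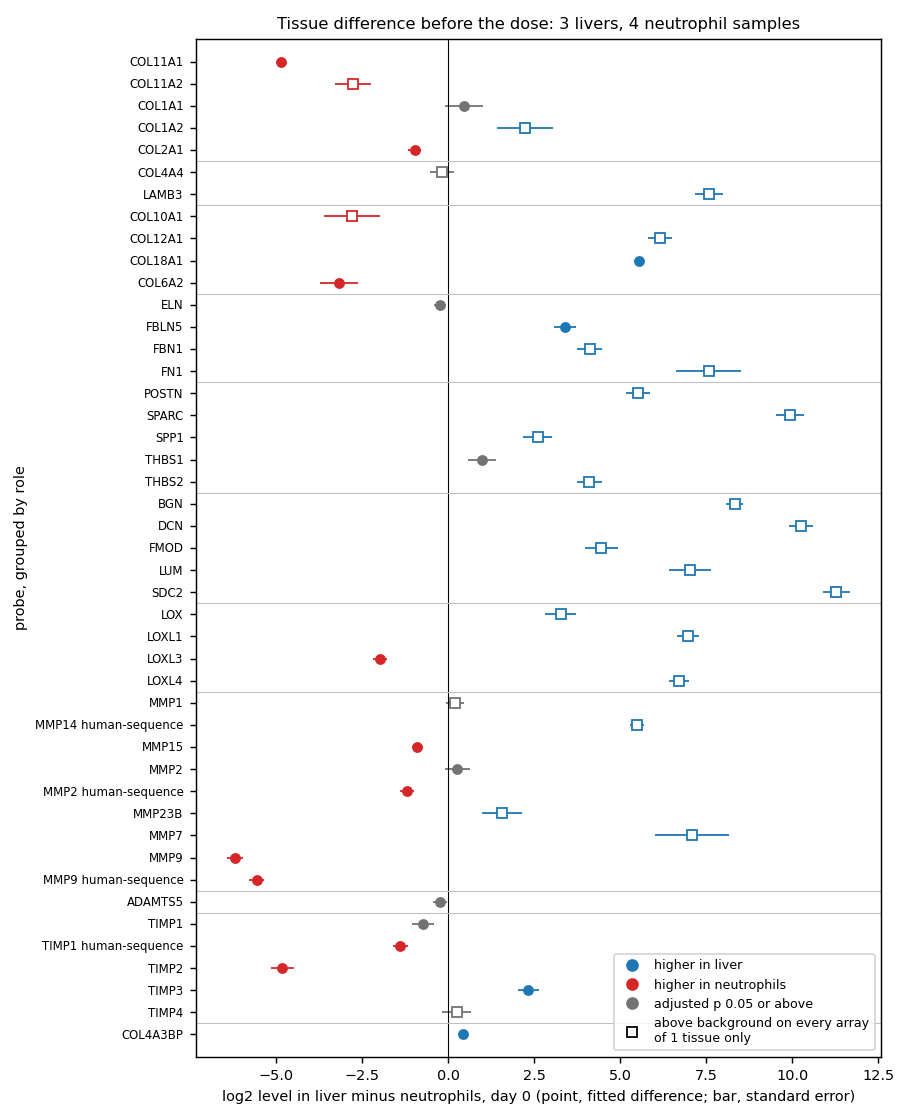
Fitted log2 difference between liver (3 animals) and neutrophils (4 animals) on day 0 for the 45 probes tested, with standard error bars; filled circles were well above background on every array of both tissues and open squares on every array of 1 tissue only. Among the filled circles COL18A1 lies farthest to the right at 5.53 and MMP9 farthest to the left at -6.20. The open squares on the right, among them the proteoglycans, SPARC and FN1, are differences against neutrophil values at or near background, and for SDC2, DCN and the others with no neutrophil array above background the bounds in the text apply.

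In liver, 1 of the 43 matrix and protease probes tested changed between day 0 and day 7: SDC2 fell and none rose. Over all 10930 probes tested in liver, 3.99% were called, 2.67% higher and 1.32% lower. To be tested, a probe had to be well above background in all 3 livers on day 0 or in all 3 on day 7. At an unadjusted p under 0.05 there were 6 of the 43, where 17.9% of all probes passed.

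SDC2 read 4.11, 3.74 and 2.67 on day 0 and 1.74, 1.71 and 0.42 on day 7. It was lower on day 7 in all 3 animals, the days did not overlap, and the change was -2.21 ± 0.11 (adjusted p = 0.00696). The SDC2 spot lies in row 190 of 192, and in liver the array position moved with the change. The last 16 rows had a median change of -0.38 and held 125 of the lower calls, and the first 16 rows had a median of 0.53 and held 225 of the higher calls. After removal of each array's row trend, SDC2 changed by -1.38 ± 0.12 (adjusted p = 0.0554). The call was also lost without animal 58 (-2.14 ± 0.14, adjusted p = 0.0941), without the animal as a block (adjusted p = 0.111) and with no filter on dim probes (adjusted p = 0.0952).

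The largest positive change was that of COL6A2, which did not pass the test. It went from -3.85, -6.15 and -6.39 to -1.21, -2.07 and -5.53, a difference of 2.52 ± 0.62 (adjusted p = 0.129). It was higher on day 7 in all 3 animals, while the days overlapped. Without animal 66 the difference was 3.36 ± 0.38 (adjusted p = 0.049). It was 1.75 ± 0.47 without animal 61 and 2.46 ± 0.92 without animal 58 (adjusted p = 0.248 and 0.423). The skeletal muscle markers were higher on day 7 in the same livers, 8 of 8 past the threshold with a median change of 6.34. On day 0 their summed level, in units of the array's 75th percentile, lay between 0.0361 and 0.148, and on day 7 it reached 4.46, 15.3 and 3.55. MYL1, CKM, MB, TNNC2 and MYH1 were well above background on no day 0 liver array. The median change and the day 0 sums are therefore set in part by the background. The part of these markers in the result for COL6A2 was not tested.

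The other 4 probes with an unadjusted p under 0.05 moved by less and did not pass after adjustment, each with the same sign in all 3 animals. LAMB3 went from 2.03, 2.29 and 3.60 to 2.41, 3.06 and 3.78 (0.44 ± 0.15, adjusted p = 0.225). LOXL4 went from -0.13, 0.13 and 1.05 to 0.38, 0.76 and 1.30 (0.46 ± 0.12, adjusted p = 0.144). THBS1 went from -0.28, 0.20 and 0.63 to -0.62, -0.60 and 0.19 (-0.53 ± 0.13, adjusted p = 0.134). For MMP9 the human-sequence probe, in spot row 9, gave 0.63 ± 0.16 (adjusted p = 0.136), and the bovine probe, in row 44, gave 0.11 ± 0.12 (adjusted p = 0.709).

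**Figure D3:**
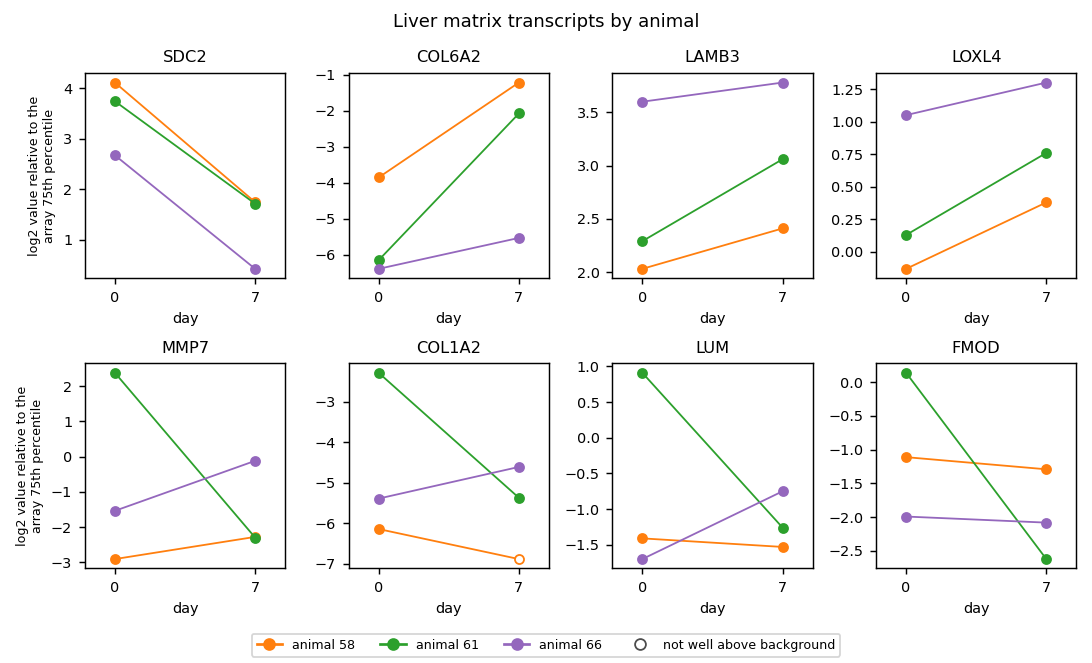
Log2 values of 8 transcripts in liver on day 0 and day 7, with 1 line per animal and open circles where the probe was not well above background. SDC2 is lower and COL6A2, LAMB3 and LOXL4 are higher on day 7 in all 3 animals, whereas in MMP7, COL1A2, LUM and FMOD the day 0 value of animal 61 lies above the other 5 arrays.

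Over the 43 probes the median change was -0.21 (all probes -0.04), with 32 of 43 negative (57.1% of all probes negative). This balance rested on animal 61. Without animal 61 the median was 0.02, with 18 of 43 negative (all probes -0.03 and 56.9%). On day 0, animal 61 had the highest value of the 6 liver arrays for 25 of the 43 probes, where this array was the highest for 20.5% of all probes. It was the highest by over 1 log2 unit for 7 of them, against 1.27% of all probes. These 7 were MMP7, COL1A2, LUM, MMP23B, COL1A1, TIMP4 and FMOD.

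MMP7 showed the largest gap. It read -2.91, 2.38 and -1.54 on day 0 and -2.28, -2.30 and -0.12 on day 7. The change over all 3 animals was -0.88 ± 1.26 (adjusted p = 0.776), and without animal 61 it was 1.02 ± 0.24 (adjusted p = 0.199), so the sign turned. COL1A2 read -6.14, -2.29 and -5.39 and then -6.88 (not well above background), -5.37 and -4.61, with a change of -1.01 ± 0.74 over all animals and 0.02 ± 0.40 without animal 61 (adjusted p = 0.565 and 0.989). LUM read -1.41, 0.91 and -1.70 and then -1.53, -1.26 and -0.75. FMOD read -1.11, 0.14 and -1.99 and then -1.29, -2.62 and -2.08, with a change of -1.01 ± 0.58 over all animals and -0.14 ± 0.13 without animal 61 (adjusted p = 0.467 and 0.747). TIMP4 changed by -0.93 ± 0.62 over all animals and by 0.00 ± 0.15 without animal 61.

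Not every matrix transcript was raised on the day 0 array of animal 61. MMP2, FBN1, SPARC, TIMP2, TIMP1, LOX, MMP1 and TIMP3 were also highest there, by 0.70 to 1.0. BGN, FN1, COL18A1, POSTN, LAMB3 and LOXL4 were not, and COL6A2 stood at -4.94 relative to the highest liver array. Markers of other cell types also read higher on that array. The summed level of the 7 stellate cell and fibroblast markers was 4.07 there and 1.52 to 2.52 on the other 5 liver arrays, with THY1 at -1.12 there and -3.80 to -2.17 elsewhere. The stellate cell marker LRAT read lower there, at -1.34 against -1.19 to -0.89. PDGFRA was not well above background on any array, and RGS5 only on that array. The 4 cholangiocyte (bile duct) markers summed to 3.77 there and to 1.69 to 2.21 elsewhere, with EPCAM at 0.62 there and -1.17 to -0.88 elsewhere. The neutrophil granule marker LTF read 3.01 there and -0.82 to 1.22 on the other liver arrays, but only -0.46 to -0.22 in neutrophils on day 0. Among the liver arrays S100A8 and S100A12 were also highest there, at -2.09 and 0.07. MPO was not, at -5.95 against -6.26 to -4.58 on the others, and CAMP was well above background on no liver array. The 8 endothelial markers summed to 6.52 there, within the 5.23 to 6.64 of the others, and the 10 hepatocyte markers to 650, within 613 to 810. Single endothelial markers differed: PECAM1 read -1.80 there and -3.02 to -2.40 on the others, and the brighter KDR probe -0.05 and -1.55 to -0.55. VWF was well above background on that liver array alone. CDH5, ENG, STAB2, LYVE1 and TEK lay within the range of the other liver arrays. The part of these cell types in the values of animal 61 was not tested.

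**Figure D4:**
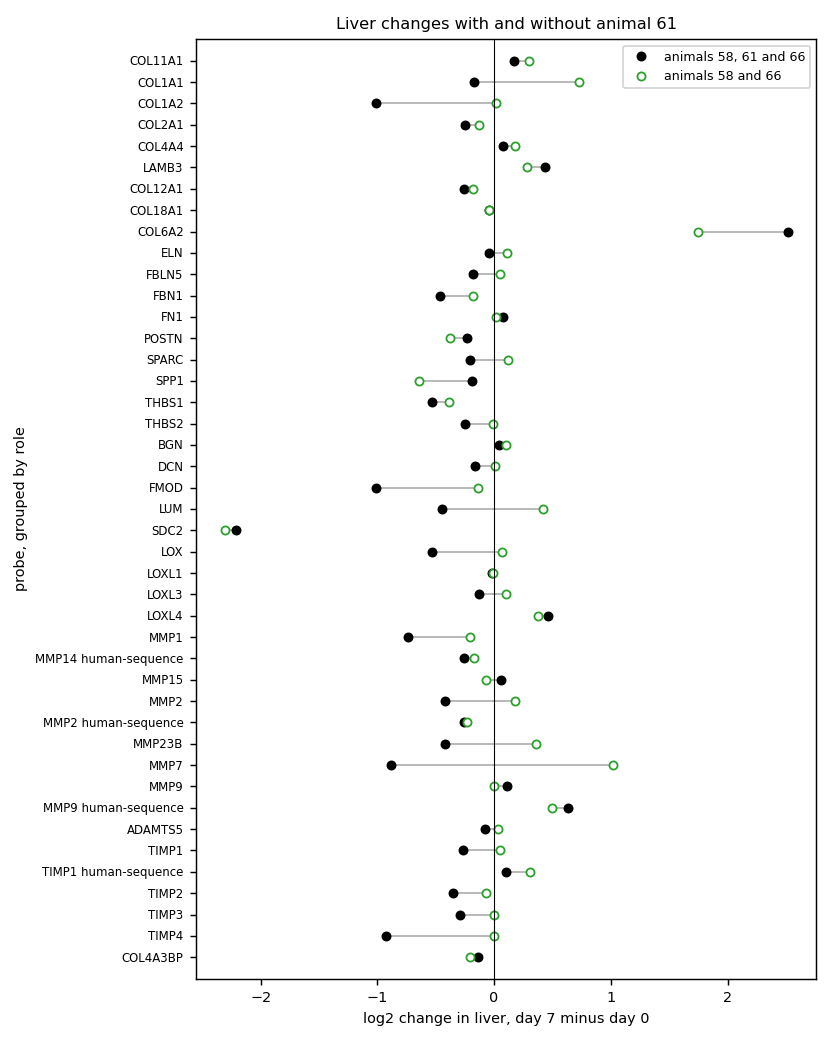
Log2 change in liver, day 7 minus day 0, for the 43 probes tested, fitted on all 3 animals (filled) and without animal 61 (open). Without animal 61, COL1A2, FMOD, TIMP4 and LOX move towards 0, MMP7 goes from -0.88 to 1.02, and SDC2 stays below -2.

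Several structural genes of liver matrix differed little between the days. The values of COL18A1 were 0.77, 0.70 and 0.78 on day 0 and 0.77, 0.65 and 0.70 on day 7 (-0.04 ± 0.10). BGN changed by 0.04 ± 0.17, DCN by -0.16 ± 0.17, FN1 by 0.08 ± 0.17, LOXL1 by -0.02 ± 0.10 and ELN by -0.04 ± 0.15 (adjusted p = 0.694 to 0.94 for these 5). In SPARC and SPP1 the animals differed more. SPARC changed by 0.20, -0.88 and 0.05 (-0.21 ± 0.24), and SPP1 by -1.18, 0.72 and -0.09 (-0.19 ± 0.37). With 3 animals the fit could still miss changes several times the size of these errors. COL6A2 at 2.52 ± 0.62 and THBS1 at -0.53 ± 0.13 were not called in liver.

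In neutrophils, none of the 22 matrix and protease probes tested changed between the days. Limma called 0 of the 9448 probes tested (0.0%), and at an unadjusted p under 0.05 there were 1268 (13.4%), none of them among the 22. The changes ranged from -0.52 to 0.54, with a median of -0.09 (all probes -0.07), and 16 of 22 were negative (55.4% of all probes). Without animal 34, whose day 7 array was the dimmest, 10 of 27 probes tested were negative and the median was 0.01.

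MMP9 read 2.71, 2.73, 2.65 and 3.42 on day 0 and 2.26, 3.39, 2.45 and 2.52 on day 7 (-0.22 ± 0.31, adjusted p = 0.755). It was lower in 3 animals and higher in animal 26. TIMP2 read 5.54, 5.90, 4.85 and 5.44 and then 5.27, 5.16, 4.77 and 4.43, lower in all 4 animals with overlapping days (-0.52 ± 0.27, adjusted p = 0.422). TIMP3 was higher in 3 of 4 animals (0.54 ± 0.29, adjusted p = 0.428). COL11A1 read -0.55, -0.52, -0.59 and -0.40 and then -1.02, -0.85, -0.16 and -2.13 (-0.52 ± 0.37, adjusted p = 0.526). TIMP1 read -0.28, -0.99, -1.02 and -1.03 and then -0.53, -0.58, -0.49 and -1.93 (-0.05 ± 0.31, adjusted p = 0.947). LOXL3 and the membrane-type protease MMP15 changed by -0.37 ± 0.30 and -0.19 ± 0.31 (adjusted p = 0.572 and 0.781).

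SPARC and DCN, singled out after their values were seen, were too dim to enter that test, and their day 7 values lay above those of day 0 without passing a test. SPARC read -6.08, -5.21, -6.21 and -6.56 on day 0, where 1 of 4 arrays was well above background. On day 7 it read -4.15, -2.28, -3.84 and -4.65, with 3 of 4 arrays well above background. The day 7 value was the higher in all 4 animals and the days did not overlap, although animal 34 was not well above background on either day. DCN read -7.54, -6.93, -6.93 and -6.09 on day 0, with no array well above background, and -4.67, -2.06, -6.49 and -3.33 on day 7, with 3 of 4, and its day 7 mean was at least 2.53-fold that of day 0. In animal 32 DCN was not well above background on either day, so no change is shown there, and animal 26 had the highest day 7 value for both. Tested with no filter on dim probes, SPARC changed by 2.28 ± 0.29 and DCN by 2.73 ± 0.62, and neither passed (adjusted p = 0.288 and 0.293). In the same 4 animals FN1 was well above background only in animal 26, at -3.83 on day 0 and -3.63 on day 7, and LUM on no array.

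Markers of other cells read as follows beside these values. Of the 7 stellate cell and fibroblast markers, 3 or 4 were well above background on each neutrophil array on both days, with PDGFRA, RGS5 and LRAT on none. Most of their summed level was VIM, and it lay between 39.6 and 42.6 before the dose and between 26.2 and 52.3 a week later. The 8 endothelial markers summed to between 0.352 and 0.451 before and between 0.425 and 0.758 after. VWF and LYVE1 were well above background on none of these arrays. The platelet marker ITGA2B read 1.44, 1.64, 1.44 and 1.15 and then 0.88, 0.95, 2.01 and 0.74. The 6 T cell markers summed to between 2.37 and 4.20 before and between 5.58 and 7.07 after, which did not overlap, but 0 of the 6 were called. Their median log2 level was higher on day 7 in animals 25, 26 and 32. In animal 34 the median went from -2.01 to -2.95, with CD3D, CD2, CD5 and LCK lower on day 7. The eosinophil marker CCR3 went from 0.63, 0.75, 1.89 and 0.19 to -0.42, -0.97, -0.63 and -0.74, lower in all 4 animals without overlap (-1.55 ± 0.33, adjusted p = 0.298). The part of other cells in the SPARC and DCN values was not tested.

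**Figure D5:**
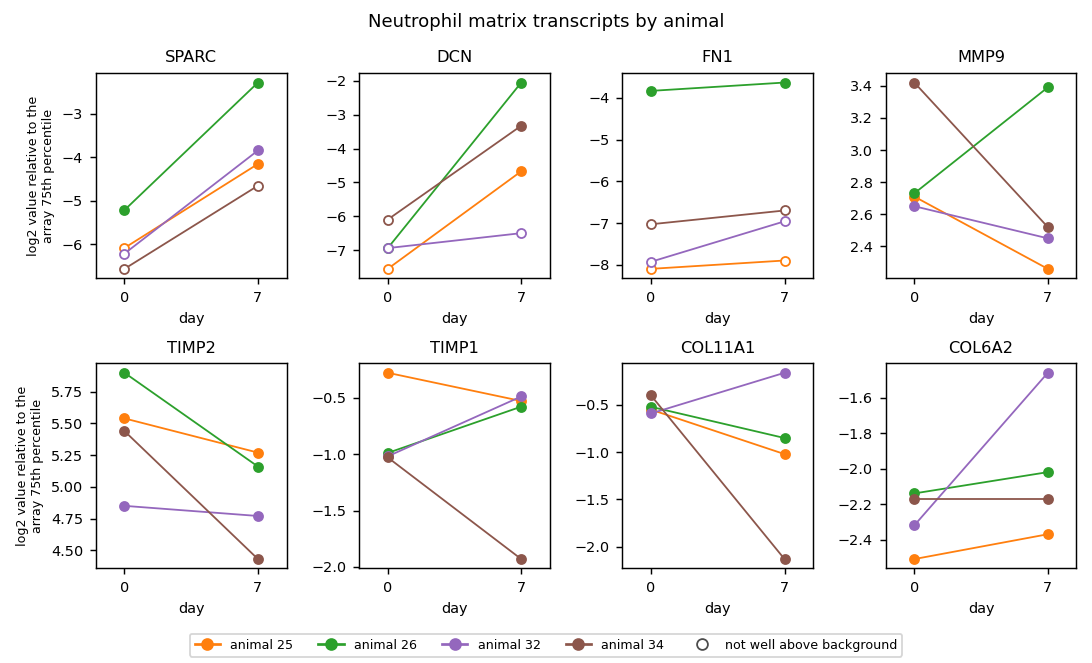
Log2 values of 8 transcripts in neutrophils on day 0 and day 7, with 1 line per animal and open circles where the probe was not well above background. SPARC reads higher on day 7 in all 4 animals and DCN is above background on day 7 in animals 25, 26 and 34, from values at or near background, FN1 is above background only in animal 26, and MMP9, TIMP1 and COL11A1 move in both directions.

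Whether the change between days differed between the tissues could be tested for 20 of these probes, and limma called 0 of the 20, against 1.17% of all 8838 probes tested. At an unadjusted p under 0.05 there was 1 of the 20, against 13.5% of all. That probe was COL6A2, with a liver change larger by 2.24 ± 0.66 (adjusted p = 0.177). TIMP3 changed by -0.29 in liver and 0.54 in neutrophils, a difference of -0.83 ± 0.38 (adjusted p = 0.39). SDC2 was not part of this test, since it was not well above background on any neutrophil array.

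Genes that make, process, receive or regulate matrix, and are not among the 58 probes, were counted for comparison. Of 106 such genes, 58 were on the array. In liver 46 were tested, and 2 rose and 1 fell (2.67% and 1.32% of all probes), with a median change of -0.11. ITGB5, an integrin β chain, rose by 1.96 ± 0.15 (adjusted p = 0.012), PLAU, the urokinase plasminogen activator, rose by 1.06 ± 0.10 (adjusted p = 0.0179), and TGM2, a transglutaminase that cross-links matrix, changed by -1.12 ± 0.14 (adjusted p = 0.0302). These spots lie in rows 1, 24 and 189, and none of the 3 passed with the row trend removed. In neutrophils 0 of 35 passed (median -0.21, 11 of 35 positive), and for the difference between tissues 0 of 30. SERPINH1, picked after its values were seen, read -4.97, -6.97, -5.82 and -5.47 in neutrophils and then -4.28, -5.19, -4.40 and -4.10. It was well above background on 1 of 4 arrays on day 0 and 4 of 4 on day 7. MGP, PCOLCE2 and MFAP5, too dim to be tested, were each well above background on 1 day 7 neutrophil array, and read highest in animal 26. Of the 50 genes of this list tested on day 0, 26 were higher in liver and 19 in neutrophils (39.7% and 43.4% of all probes). Those higher in liver included the adhesive plasma protein vitronectin (VTN, 6.90 ± 0.16) and the heparan sulphate proteoglycan syndecan-1 (SDC1, 5.87 ± 0.18). Those higher in neutrophils included the urokinase receptor (PLAUR, -7.53 ± 0.27), urokinase (PLAU, -5.35 ± 0.40) and the hyaluronan receptor CD44 (-4.59 ± 0.34), with adjusted p from 1.17e-08 to 3.91e-06 for these 5.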

How the data were processed

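Liver of 3 cattle and neutrophils of 4 others were measured on days 0 and 7 on 14 single-colour arrays. The deposited spot intensity is the processed signal of Agilent Feature Extraction (9.5 per the submitters' processing notes, 9.5.1.1 per the file headers), already background-corrected. The mean and background intensities, spot flags and grid positions come from the same deposited files. The authors' deposited log2 value table matched the main values up to a constant per array (median difference 0.004 to 0.013, correlation 1.0, column medians -3.55 to -2.69). The build behind the probe design was not used here.

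Control and outlier-flagged spots were left out. Each array's signals were divided by their 75th percentile, taken to log2 and averaged over spots that share a sequence. Probes that the files name otherwise, such as a predicted COL3A1, LAMB2 or MMP19, were not counted. Names came from the files and from an NCBI RefSeq table of assembly ARS-UCD2.0, used for names alone. A probe was tested if all arrays of either group compared had it well above background, using limma 3.58.1 (R 4.3.3; lmFit and eBayes, checked on simulated data), two-sided, adjusted by Benjamini-Hochberg over all probes tested, with a threshold of 0.05. The errors are the fits' standard errors, moderated over all probes. Day 7 was compared with day 0 within each tissue with the animal as a block, the difference between tissues in 1 model over 14 arrays, and liver with neutrophils on day 0 without a block.

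The labels give each animal on both days, and this is the pairing. Paired deviations from the group means correlated at 0.65, 0.32 and 0.61 in liver and 0.61, 0.36, 0.03 and 0.24 in neutrophils. Named probes were those past the threshold (at most 20 per comparison, by size) and up to 4 genes per role with the largest change. Probes outside this rule were also given, among them COL1A1, THBS1, MMP1, MMP2 and MMP15 for the tissues and SPP1 for liver. SPARC and DCN in neutrophils, also outside it, were singled out after their values were seen. The members, lists and rule were chosen with earlier results of these data known. Marker lists for 14 cell types were set beside the results. One marker, and the summed level that includes it, is not reported here. Between the days within a tissue the lists gave 0 calls beyond the 8 muscle markers, FGB (hepatocyte) and ENG (endothelial), all higher in liver on day 7. The ENG spot lies in row 3, among the first 16 rows, which held 225 of the higher calls in liver. The FGB spot lies in row 19. The alternatives were no block, other background corrections and normalizations, the authors' values, other filters, removal of a trend over spot rows, inner rows alone, day 7 or all arrays for the tissue comparison, and each animal left out.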

Additional observations from a re-analysis of the deposited data

Results flagged for a closer look

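Within the neutrophil groups of 4, a sample that lay apart from the other 3 was looked for in 68 sets of values (probes well above background on at least 1 of the arrays), and 6 were found. Chance alone gives about 1 in 20 groups.

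Animal 34 was highest for MMP9 on day 0 with both probes, at 3.42 against 2.65 to 2.73 in the others with the bovine probe and at 3.10 against 2.42 to 2.50 with the human-sequence probe. These 2 probes share most of their sequence and are not independent. On day 7 the bovine probe read 2.52 in this animal.

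For TIMP1, animal 25 was highest on day 0 at -0.28 against -1.03 to -0.99, and animal 34 was lowest on day 7 at -1.93 against -0.58 to -0.49. The day 7 array of animal 34 had the smallest share of spots well above background of the 14 arrays.

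On day 0, BGN read -4.24 in animal 25 against -5.11 to -4.97, and COL1A1 read -4.63 in animal 26 against -4.52 to -4.50, a gap of little size.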

How the results depend on the processing

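The animal as a block decided calls in liver: with no replicate block 0 of the matrix and protease probes were lower (1 with it) and 1 of the partner genes rose (2 with it), and the block changed no other count of these lists. In liver, 0 probes were lower with no filter, with the row trend removed and in the inner rows alone, where SDC2 was not tested. In these 3 settings 0 partner genes rose and 0 fell. The cause of the losses was not tested. Leaving out 1 liver animal gave 0 to 1 probes higher (COL6A2 without animal 66) and 0 to 2 lower, 0 without animal 58 and 2, SDC2 and COL10A1, without animal 66. Partner genes were then 0 to 1 higher and 0 lower. The COL10A1 probe was well above background on no day 7 liver array. Its spot lies in row 187, among the last 16 rows, as does that of SDC2. Over all probes, the 436 liver calls became 212 with no block, 584 with normexp and quantile normalization, 16 with the row trend removed, 108 and 164 without animals 61 and 66, and 0 with no filter, in the inner rows or without animal 58. The 103 calls for the difference between tissues became 8 with the row trend removed, 0 in the inner rows, 66 with no filter and 15 to 266 with 1 animal left out. There, 1 matrix probe was lower with no filter (SDC2, whose neutrophil values are all at background, so that this value says nothing of neutrophils), and leaving out 1 animal gave 0 to 1 lower (DCN without 32, SPARC without 34) and 0 to 1 partner genes higher. In neutrophils no alternative gave a call over all probes. On day 0, 24 probes were higher in liver, and 5 among those well above background on every array of both tissues. Against 12 higher in neutrophils, 7 were in the inner rows and 7 on the day 7 arrays, where fewer probes were tested. Partner genes higher in liver numbered 26, 10 under that filter and 13 in the inner rows. Removing the row trend moved the median of all probes in the tissue comparison from -0.12 to -0.01. Among the named probes no called value changed sign. Of their refits, 363 of 368 in liver, 215 of 215 in neutrophils, 243 of 243 for the difference and 542 of 564 for the tissues kept their side of the threshold. Of the 58 probes, 36 were too dim to be tested in neutrophils.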
